A study of Mus musculus with 2 samples.

Results

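CD28 and the receptors and ligands grouped with it set how strongly a T cell answers its antigen. The group examined here holds 10 genes, chosen by name: the receptor genes Cd28, Ctla4, Pdcd1, Btla, Lag3, Havcr2, Tigit and Cd160, and the ligand genes Cd274 and Pdcd1lg2. All probes annotated to these symbols were taken, which gave 11 probes of the 55681 on the array and 10 genes of the 20738 with a named probe. Of the 10 genes 9 were read by a single probe printed on a single spot, and Pdcd1lg2 by 2 probes.

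The series compared 1 culture labelled Gfi1 knockout with 1 culture labelled wild type, on 1-colour (Cy3) mouse expression arrays, 1 array each. Gfi1 encodes a zinc-finger repressor of transcription, and the title of the series asks how it bears on the T helper 1 programme of activated CD4 T cells. Both cultures came from spleens of C57BL/6 mice and were started from naive CD4 T cells, defined in the labels as CD44 low, CD62L high and CD25 negative and isolated with a CD4 and CD62L bead kit. The cells of both genotypes were then stimulated for 2 days with immobilised anti-TCR-β at 3 µg/ml and anti-CD28 at 1 µg/ml, in medium with IL-2 at 10 ng/ml and with blocking antibodies to IL-4 and to IFN-γ, each at 5 µg/ml. CD28, the first member of the group, was therefore targeted by a stimulating antibody in both cultures. How the knockout was made, how old and how many the mice were, and whether animals were pooled are things the labels leave unsaid.

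CD28 is the main costimulatory receptor of T cells and binds CD80 and CD86 on antigen-presenting cells. CTLA-4 takes the same ligands with higher affinity and withholds them, while PD-1, encoded by Pdcd1, recruits phosphatases that act on CD28 and the T cell receptor once it meets PD-L1 (Cd274) or PD-L2 (Pdcd1lg2). BTLA, LAG-3, TIM-3 (Havcr2), TIGIT and CD160 are further receptors that appear on activated or chronically stimulated lymphocytes, most of them inhibitory, and PD-L1 is a well-known target of interferon signalling.

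With 1 array per genotype there is no spread between cultures or animals, no test was possible and no p-value is given. Signals are the deposited spot intensities in arbitrary units, and levels of different probes cannot be set against each other. Differences are log2 values, knockout-labelled library minus wild-type-labelled library, after each array was divided by its 75th percentile (269 units in the knockout-labelled library, 263 units in the wild-type-labelled library). A probe counted as detected above the array's median, 14.6 units in the knockout-labelled library and 14.2 units in the wild-type-labelled library, and genes were counted as different at 2-fold or more. Over all 13411 detected genes the middle difference was -0.05, with 10% of genes below -0.37 and 10% above 0.46. Repeat spots of 1 probe give the only measured error: among probes that have 10 spots, the difference had a median SD of 0.35 under 50 units, 0.11 from 50 to 500, 0.05 from 500 to 5000 and 0.04 above. This covers variation within the arrays alone.

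Some measurements bear on the libraries as a whole. Gfi1 itself read 18100 units in the knockout-labelled library and 4260 units in the wild-type-labelled library (log2 2.05), which runs against the labels if its probe lies in the deleted part, and where the probe lies is not stated in the labels or files. Libraries are therefore called by their labels, and every direction below rests on them. The Y-linked Eif2s3y read 3870 units in the knockout-labelled library and 2.91 units in the wild-type-labelled library. The X-inactivation RNA Xist read 3.86 units in the knockout-labelled library and 447 units in the wild-type-labelled library. These are readings of male cells in the knockout-labelled library and of female cells in the wild-type-labelled library. Sex and genotype therefore cannot be told apart for any gene, those of the group included. Gapdh stood at 0.04 ± 0.07 (SD over 8 probes), Actb at -0.05 and Hprt at -0.01, and B2m at 0.64, with 65900 units in the knockout-labelled library and 41485 units in the wild-type-labelled library. Of the defining CD4 T cell markers, Cd4 read 12100 and 381 units on its 2 probes in the knockout-labelled library and 13300 and 404 units in the wild-type-labelled library, and Cd3e read 15900 units in the knockout-labelled library and 20900 units in the wild-type-labelled library. In a bulk culture, fewer cells of a type and less RNA per cell cannot be told apart.

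All 11 probes were detected on both arrays. At least 2-fold higher in the knockout-labelled library were 2 of the 10 genes, Cd274 and Havcr2, against 3.62% of all detected genes, and 1 of the 10, Cd160, was at least 2-fold lower, against 1.52%. The other 7 lay between these limits, with Pdcd1 the lowest of them and Lag3 the highest. In all 6 genes were above 0 and 4 below it, and the median was 0.14, while 41.6% of all genes were above 0. Of the 10 genes 3 lay in the highest 10% of all genes, 2 in the lowest 10%, and 5 between these limits, which leave 20% of all genes outside by construction.

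**Figure D1:**
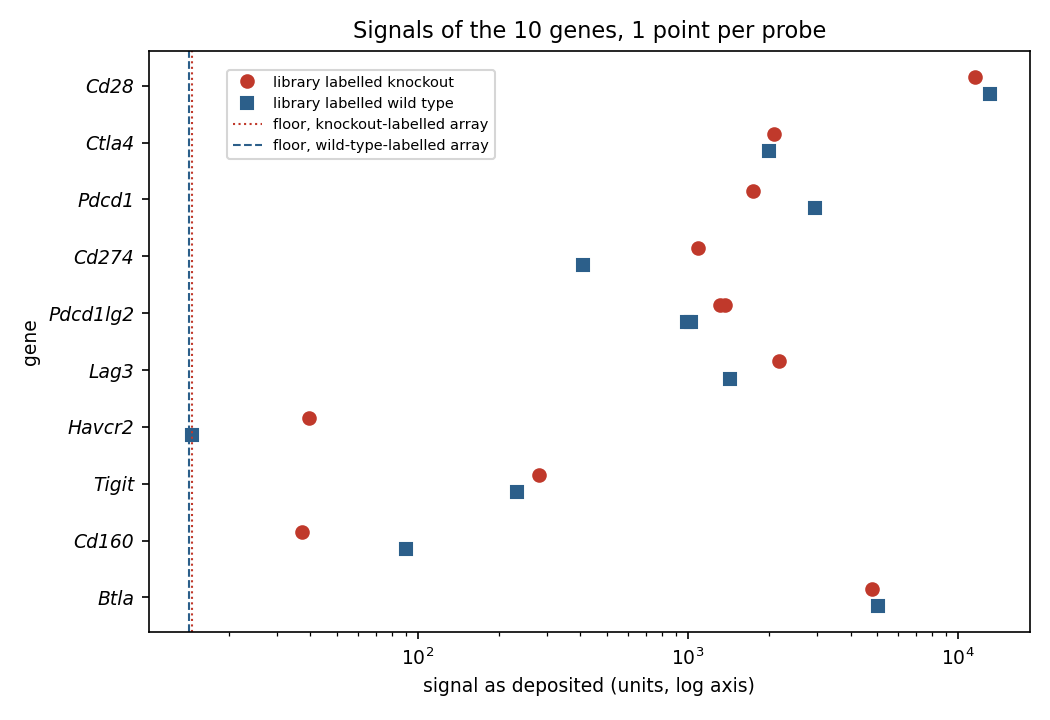
Deposited signal of each probe of the 10 genes (horizontal log axis, arbitrary units), with the knockout-labelled library as circles and the wild-type-labelled library as squares, and each array's detection floor as a vertical line. The circles of Cd274 (1090 units) and Lag3 (2170 units) lie right of their squares (408 and 1430 units), those of Pdcd1 and Cd160 lie left of theirs, and the Havcr2 square lies next to the floor; signals of different genes are not on a common scale.

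Of the 3 genes of the PD-1 axis only Cd274 passed 2-fold, while Pdcd1lg2 stood at 0.38 and Pdcd1 at -0.80. Cd274, which encodes PD-L1, read 1090 units in the knockout-labelled library, against 408 units in the wild-type-labelled library. This is a 2.61-fold difference (log2 1.39), many times the 0.05 SD of repeat spots at that level, and 273 of the 13411 detected genes had a larger positive one. Among the 4653 genes with a mean signal of 500 to 5000 units only 1.59% were at least 2-fold higher.

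Pdcd1lg2, which encodes PD-L2, the second ligand of PD-1, was read by 2 probes. They gave 1370 and 1310 units in the knockout-labelled library and 1030 and 988 units in the wild-type-labelled library. Both probes were brighter in the knockout-labelled library, and their differences were nearly equal, at 0.38 with an SD of less than 0.01 between probes. The difference was 1.30-fold and stayed inside the 10% limits of all genes given above.

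Pdcd1, the gene of the receptor PD-1 itself, read 1740 units in the knockout-labelled library, against 2960 units in the wild-type-labelled library. It was 1.74-fold lower (log2 -0.80), short of the 2-fold limit, and 305 genes had a more negative difference. At 500 to 5000 units 0.258% of genes were at least 2-fold lower. Its spot has a feature number above 50000, a range in which spots of this brightness passed 2-fold downwards in 0.374% of cases, against 0.156% at lower numbers.

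Cd274 and Pdcd1lg2 are direct neighbours on chromosome 19 in the order of RefSeq assembly GRCm38.p6. Plgrkt, on the other side of Cd274, stood at -0.17, and Ric1, on the other side of Pdcd1lg2, at 0.12. Cd274 thus differed more than either of its flanking genes, of which Pdcd1lg2 is 1. The 250 bases before the start of each are shown because the neighbouring ligand genes differed by unequal amounts, with those of Pdcd1, their receptor, beside them. They are from RefSeq, build GRCm38.p6, read 5′ to 3′ on the gene's strand, and capitals would mark a match of the motifs named next.
Cd274, chr19:29367188-29367437 (+ strand): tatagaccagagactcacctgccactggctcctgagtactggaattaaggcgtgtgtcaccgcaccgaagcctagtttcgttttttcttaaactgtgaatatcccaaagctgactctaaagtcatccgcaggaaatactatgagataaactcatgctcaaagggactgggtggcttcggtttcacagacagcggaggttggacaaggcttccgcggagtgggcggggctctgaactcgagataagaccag
Pdcd1lg2, chr19:29410669-29410918 (+ strand): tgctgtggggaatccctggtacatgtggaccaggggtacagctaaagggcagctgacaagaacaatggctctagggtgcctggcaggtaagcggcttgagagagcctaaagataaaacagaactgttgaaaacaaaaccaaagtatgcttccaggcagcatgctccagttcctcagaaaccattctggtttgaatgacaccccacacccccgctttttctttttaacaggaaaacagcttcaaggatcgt
Pdcd1, chr1:94052554-94052803 (- strand): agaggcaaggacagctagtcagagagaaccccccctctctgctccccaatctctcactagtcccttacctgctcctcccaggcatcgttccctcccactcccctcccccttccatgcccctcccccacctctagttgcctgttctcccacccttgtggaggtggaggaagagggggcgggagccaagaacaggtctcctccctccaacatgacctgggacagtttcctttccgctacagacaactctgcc

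These windows were searched on both strands for 3 motifs: the core of the interferon-stimulated response element (GAAA, any 2 bases, GAAA), the interferon-gamma activated site (TTCNNNGAA, which reads the same on both strands) and the AAATC core of GFI1 binding sites. None of the 3 promoters shown above held a match, so no base in them is in capitals. Of the 32851 promoter windows of the same length 2.98% held the first motif, 7.02% the second and 32.7% the third. A window without a match says only that these letters are not in it.

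The costimulatory receptor gene and its inhibitory counterpart differed little. Cd28 read 11600 units in the knockout-labelled library, against 13100 units in the wild-type-labelled library, a difference of -0.21 that exceeds the 0.04 SD of repeat spots but lies within the 10% limits of all genes given above. Ctla4, whose product competes with CD28 for ligand, read 2090 units in the knockout-labelled library and 1990 units in the wild-type-labelled library. Its difference of 0.04 was within the 0.05 SD of repeat spots, and its spot has a feature number above 50000.

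Icos encodes the third receptor of this gene cluster, an inducible costimulator that supports follicular helper cells. Cd28, Ctla4 and Icos follow each other on chromosome 1 in the RefSeq order with no other protein-coding gene between them. Icos read 6680 and 24300 units on its 2 probes in the knockout-labelled library, and 3720 and 14400 units in the wild-type-labelled library. It stood at 0.77 ± 0.06 (SD over 2 probes), which is 1.70-fold, so of the 3 neighbours it alone lay in the highest 10% of all genes.

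Btla, an inhibitory receptor that binds HVEM (Tnfrsf14), read 4820 units in the knockout-labelled library, against 5040 units in the wild-type-labelled library, a difference of -0.10. Cd160 encodes a second receptor for HVEM, carried by NK cells, CD8 T cells and a part of CD4 T cells. It read 37.3 units in the knockout-labelled library, against 90.7 units in the wild-type-labelled library, and was 2.49-fold lower (log2 -1.31). Repeat spots at 50 to 500 units had a median SD of 0.11 and a highest SD of 0.71, and 120 genes had a more negative difference. At that brightness 1.47% of genes were at least 2-fold lower. The mean signal of Cd160, 58.2 units, lies near the lower edge of this class. Under 50 units the median SD was 0.35, and 4.95% of genes were at least 2-fold lower. Tnfrsf14, the shared ligand gene, stood at 0.03 ± 0.36 over 2 dim probes that disagreed in sign.

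The promoters of these HVEM receptors are shown because they hold matches and their genes differed by unequal amounts. Capitals mark TTCNNNGAA in the Cd160 window and AAATC or its reverse complement in the Btla window, in which a pair of matches lie end to end.
Cd160, chr3:96814522-96814771 (- strand): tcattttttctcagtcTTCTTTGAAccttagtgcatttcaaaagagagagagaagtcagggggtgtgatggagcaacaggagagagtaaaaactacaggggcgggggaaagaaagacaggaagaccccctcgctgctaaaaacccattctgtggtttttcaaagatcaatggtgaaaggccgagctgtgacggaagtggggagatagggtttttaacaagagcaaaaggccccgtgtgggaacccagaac
Btla, chr16:45224087-45224336 (+ strand): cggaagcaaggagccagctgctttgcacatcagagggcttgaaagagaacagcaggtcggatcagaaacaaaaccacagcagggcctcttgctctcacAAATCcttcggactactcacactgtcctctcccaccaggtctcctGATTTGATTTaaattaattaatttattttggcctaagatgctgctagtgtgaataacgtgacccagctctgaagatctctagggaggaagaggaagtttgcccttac

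RefSeq lists a second start for Cd160, and the window before it held none of the 3 motifs. Ctla4 was the only other gene of the group with a match, with 2 of AAATC. Promoters were matched for 8 of the 10 genes, in 9 windows, and those of Cd28 and Lag3 were not used here. Btla, with 3 matches of AAATC, and Ctla4 were the genes nearest to 0 in the group. With AAATC in 32.7% of all windows these matches are a description of the letters and not of binding.

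Of the remaining inhibitory receptors Havcr2 passed 2-fold, and Lag3 at 0.57 and Tigit at 0.24 did not. Lag3, whose product binds MHC class II, read 2170 units in the knockout-labelled library, against 1430 units in the wild-type-labelled library. The difference was 1.48-fold (log2 0.57), in the highest 10% of all genes. Cd4, the direct neighbour and relative of Lag3 on chromosome 6, stood at -0.14 ± 0.03 (SD over 2 probes).

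Havcr2, which encodes TIM-3, read 39.5 units in the knockout-labelled library and 14.6 units in the wild-type-labelled library, the second just over the floor of 14.2 units. The difference was 2.65-fold (log2 1.40), against an SD of 0.35 between repeat spots of such brightness. Its spot has a feature number above 50000. Of probes that dim in this range 10.3% passed 2-fold upwards and 11.1% downwards, against 4.09% and 1.84% at lower numbers. Without spots of this range Havcr2 is not measured and 1 gene of the group is at least 2-fold higher.

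Tigit, an inhibitory receptor for CD155 (Pvr) and nectin-2, read 280 units in the knockout-labelled library, against 232 units in the wild-type-labelled library. Repeat spots at that level had a median SD of 0.11 and a highest SD of 0.71, against its difference of 0.24. The 3 genes Tigit, Ctla4 and Btla thus showed the smallest differences of the inhibitory receptors.

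**Figure D2:**
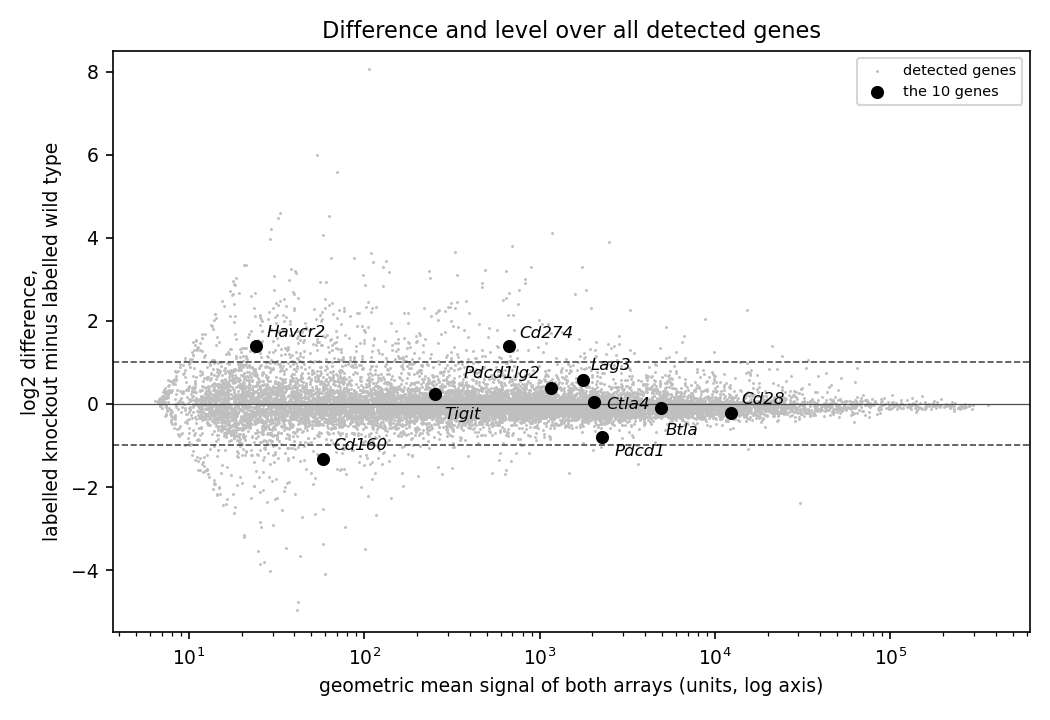
Log2 difference of every detected gene (vertical axis, knockout-labelled library minus wild-type-labelled library) against its geometric mean signal over both arrays (horizontal log axis, arbitrary units), with the 10 genes as black points and dashed lines at 2-fold. Cd274 at 1.39 stands above the dense band of genes of its brightness, Cd160 at -1.31 lies below the lower line among dimmer genes, and Havcr2 at 1.40 lies where the scatter of all genes is wide.

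Of the B7 family ligands and related genes 6 of 8 were detected, 5 of them above 0 and 2 at least 2-fold higher. Among all detected genes these shares were 41.6% and 3.62%, respectively. Besides Cd274 this was Cd80, the ligand of CD28 and CTLA-4, with 314 and 906 units on 2 probes in the knockout-labelled library, against 105 and 382 units in the wild-type-labelled library. Cd80 stood at 1.38 ± 0.24 (SD over 2 probes), a value that came to 0.72 with a floor at the 75th percentile. Cd86, the other ligand of both receptors, read 81.9 units in the knockout-labelled library and 55.2 units in the wild-type-labelled library, a difference of 0.54.

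Icosl, the ligand of ICOS, read 37.6 units in the knockout-labelled library and 28.9 units in the wild-type-labelled library, a difference of 0.35 that equals the SD of repeat spots at that brightness. Vsir, which encodes the inhibitory molecule VISTA, was the ligand-like gene below 0, at -0.37 ± 0.12 over 2 probes. Cd276 and Vtcn1 were detected on neither array.

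Of the other partners of the inhibitory receptors 15 of 18 genes on the array were detected, and 0 passed 2-fold either way. Their median was 0.18, with 11 above 0 and 4 below, against 41.6% of all detected genes above 0. Lgals9, which encodes galectin-9, a ligand of TIM-3, was the highest at 0.82, with 2210 units in the knockout-labelled library and 1220 units in the wild-type-labelled library. Nectin3 stood at 0.80 on a dim spot and Lgals3, a galectin gene linked to LAG-3, at 0.68.

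The ligands of TIGIT stood at 0.49 (Pvr) and 0.15 (Nectin2). Fgl1, a ligand of LAG-3, read 19.1 units in both libraries. At the low end of this list were Havcr1, the TIM-1 gene, at -0.44 and Hmgb1, a nuclear protein gene whose product also binds TIM-3, at -0.24. Ceacam1 and Pvrig were not analysed here.

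Genes of the signalling machinery below these receptors hardly differed. Of 17 detected genes below CD28, which include the PI3-kinase subunits, Akt1, Vav1, Prkcq and Malt1, 0 passed 2-fold and all lay between -0.29 and 0.42, with a median of -0.01. The extremes were Carmil2, a scaffold of CD28 signalling, and Pik3cg. Of 22 detected effectors and handling genes of the inhibitory receptors 0 passed 2-fold, and the median was -0.03.

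Among these effectors the phosphatase genes Ptpn6 and Ptpn11 stood at 0.04 and -0.18. Cmtm6, whose product keeps PD-L1 at the cell surface, stood at 0.31, with 9570 units in the knockout-labelled library and 7570 units in the wild-type-labelled library. Trat1, an adaptor that carries CTLA-4 to the surface, was the highest of the list at 0.74, and Dgkz, a diacylglycerol kinase gene, the lowest at -0.37.

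Of the interferon route that leads to PD-L1, 13 genes were detected and 2 were at least 2-fold higher, Ifng and Stat2, against 3.62% of all detected genes. Ifng read 4944 units in the knockout-labelled library and 279 units in the wild-type-labelled library (log2 4.11), with an antibody to its protein present in both cultures. Stat2, a factor downstream of the type I interferon receptor, read 3570 units in the knockout-labelled library and 1240 units in the wild-type-labelled library (1.49). Irf9 stood at 0.93. Irf1, the factor classically tied to the PD-L1 promoter, was read by 2 probes that differed widely in brightness, with 11700 and 19.8 units in the knockout-labelled library and 4650 and 14.0 units in the wild-type-labelled library. The bright probe, with a feature number above 50000, stood at 1.30, past 2-fold. The probe near the floor lowered the gene's mean to 0.87 ± 0.60 (SD over 2 probes). Receptor and kinase genes stayed near 0: Ifngr1 stood at 0.22, Ifngr2 at -0.02, Jak1 at -0.02 and Jak2 at 0.11.

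Transcription factors linked in other work to exhausted T cells, which carry PD-1, LAG-3 and TIM-3 together, differed unevenly. Past 2-fold were 5 of the 22 detected genes upwards and 1 downwards, against 3.62% and 1.52% of all detected genes, and their median was 0.25. The higher genes were Tbx21 (3.00), Batf3 (1.78), Eomes (1.47), Nr4a3 (1.46) and Irf4 (1.04). The Tbx21 spot has a feature number above 50000, as do those of Gfi1, Lgals9 and other genes named here. At the brightness of Tbx21 1.5% of probes in this range passed 2-fold upwards, against 1.59% at lower numbers. The dimmer Nr4a3 probe also has a spot in this range. At 50 to 500 units 5.53% of probes in it passed 2-fold upwards, against 3.04% at lower numbers. Tox, the factor most closely tied to that state, stood at -0.33, with 903 units in the knockout-labelled library and 1110 units in the wild-type-labelled library, and Tcf7 at -0.30. Egr3 lay below the floor in the knockout-labelled library and was at least 11.1-fold lower, on a dim spot with a feature number above 50000.

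**Figure D3:**
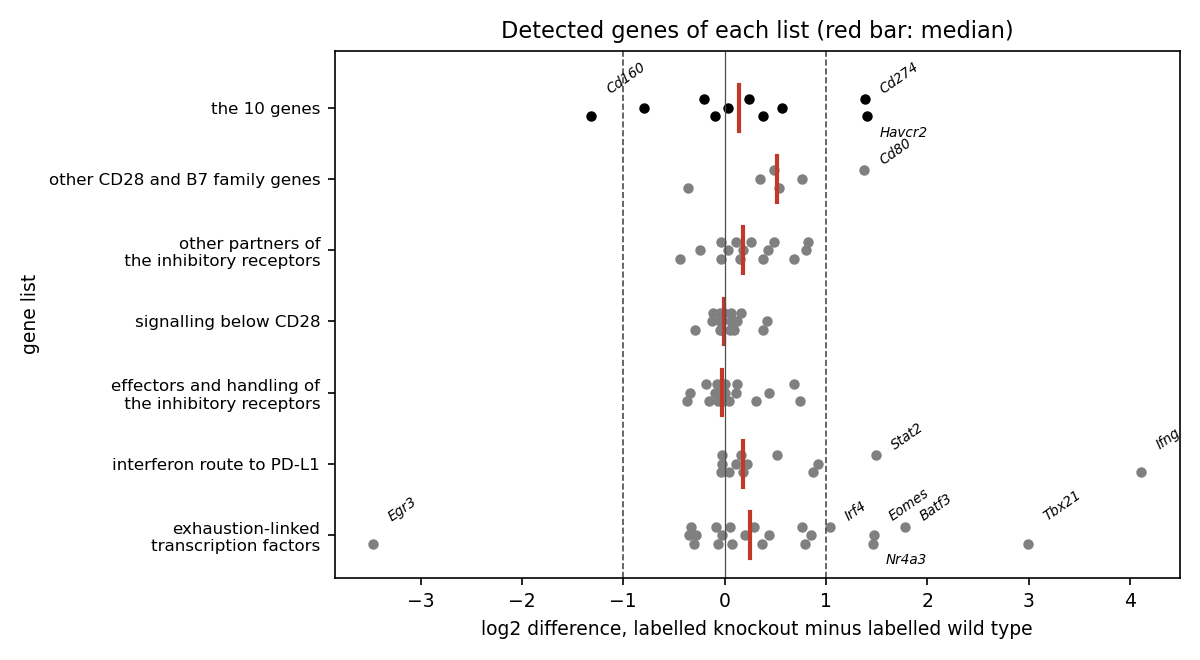
Log2 differences (horizontal axis, knockout-labelled library minus wild-type-labelled library) of the detected genes of the 10-gene group and of 6 related lists, 1 point per gene, with list medians as red bars and dashed lines at 2-fold. The signalling and effector lists stay inside the dashed lines, while the interferon list reaches 4.11 with Ifng.

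Several of these receptors and ligands are also carried by other cell types, whose markers differed between the libraries. Markers of CD8 T and NK cells, which can carry Lag3, Havcr2, Tigit and Cd160, were above 0 for 17 of 18 detected genes and at least 2-fold higher for 11. Among all detected genes these shares were 41.6% and 3.62%. Cd8a, Klrb1c, Klre1, Klrk1 and Ncr1 were detected in the knockout-labelled library alone. Their wild-type-labelled side was set to the floor, so these genes could only count as above 0. Summed levels here and below take every gene of a list on the array, each as the geometric mean of all its probes, so they include genes and probes under the floor and differ from sums over the detected genes. The sum was 37196 units in the knockout-labelled library and 8862 units in the wild-type-labelled library, or, without Gzmb, 3196 units in the knockout-labelled library and 1962 units in the wild-type-labelled library. Their defining markers were dim: Ncr1 read 28.3 units and both Cd8a probes 34.5 and 35.2 units in the knockout-labelled library, and all 3 of these lay below the floor in the wild-type-labelled library, as did Klrb1c. Both Cd8a probes have a spot with a feature number above 50000, as do Fcer1g and Prf1. Under 50 units 10.3% of probes in that range passed 2-fold upwards, against 4.09% at lower numbers. At 50 to 500 units these shares were 5.53% and 3.04%. Beside these markers Lag3 stood at 0.57, Havcr2 at 1.40, Tigit at 0.24 and Cd160 at -1.31. Their part in the differences of Lag3, Havcr2, Tigit and Cd160 was not tested.

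Markers of dendritic cells and macrophages, which carry Cd274, Pdcd1lg2, Cd80, Cd86 and Havcr2, had 11 of 19 genes detected, 7 above 0 and 3 at least 2-fold higher. Among all detected genes 41.6% were above 0 and 3.62% at least 2-fold higher. Cd68 and Mpeg1 were detected in the knockout-labelled library alone and so could only count as above 0. Adgre1 and Fcgr1 were detected in the wild-type-labelled library alone and counted as below 0. The markers summed to 160044 units in the knockout-labelled library and 141837 units in the wild-type-labelled library. Without Ccr7 and the interferon-stimulated Bst2, which T cells also express, the sums were 644 units in the knockout-labelled library and 487 units in the wild-type-labelled library. These sums understate bright probes, because a gene's mean takes in its dim ones. A probe of Siglech read 50400 units in the knockout-labelled library and 51600 units in the wild-type-labelled library. For a probe of Itgam the readings were 5170 and 4250 units. The defining Itgax and Lyz2 were below the floor on both arrays, at 3.48 and 3.30 units in the knockout-labelled library and 5.57 and 2.95 units in the wild-type-labelled library, and Csf1r stood at 0.01. Flt3 stood at 0.14 over 2 dim probes that disagreed in sign (1.07 and -0.79), and Adgre1 at -0.14 near the floor. Of the 3 higher genes Mpeg1, a macrophage and B cell gene, was at least 23.1-fold higher. Zbtb46 stood at 1.21 ± 0.39 over 2 dim probes (1.49 and 0.93), and Bst2 at 1.04. Markers of B cells, which carry Btla, Cd80 and Cd86, summed to 2099 units in the knockout-labelled library and 1312 units in the wild-type-labelled library. Above 0 were 8 of 9 detected genes, against 41.6% of all detected genes, and at least 2-fold higher were 3, against 3.62%. The 3 were Blnk (3.62), with 386 units in the knockout-labelled library and 30.6 units in the wild-type-labelled library, Ms4a1 (3.52), with 221 units in the knockout-labelled library and 18.9 units in the wild-type-labelled library, and Fcer2a (2.16), with 142 units in the knockout-labelled library and 31.1 units in the wild-type-labelled library. Ebf1 was detected in the knockout-labelled library alone and so could only count as above 0. Pax5 was below the floor on both arrays, and Cd79a stood at 0.41 ± 0.72 (SD over 2 probes). What these cells contributed to the ligand genes was not tested.

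Regulatory T cells carry much Ctla4, Tigit and Icos. Their markers had 13 of 15 genes detected and 10 above 0, against 41.6% of all detected genes above 0. Lrrc32 was at least 2-fold higher (1.02) and Nt5e at least 2-fold lower (-1.19), against 3.62% and 1.52% of all detected genes. The list summed to 241151 units in the knockout-labelled library and 200428 units in the wild-type-labelled library. Without its brightest genes, Tnfrsf4 and Tnfrsf18, the sums were 86751 and 69828 units. Of these, Il2ra read 42800 and 34200 units and Capg 34500 and 28700 units. The defining Foxp3 read 85.8 units in the knockout-labelled library and 56.9 units in the wild-type-labelled library (0.56). Beside these markers Ctla4 stood at 0.04, and their part in it was not tested. The 14 markers of CD4 T cells had -0.18 as their median. With 41.6% of all detected genes above 0, 5 of these markers were above 0 and 9 below. At least 2-fold higher was 1 of them, against 3.62% of all detected genes. This was Cd247, at 1.85 ± 1.99 over 2 probes that stood at 0.45 and 3.25, the second on a spot with a feature number above 50000. The sum was 258263 units in the knockout-labelled library and 275732 units in the wild-type-labelled library.

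**Figure D4:**
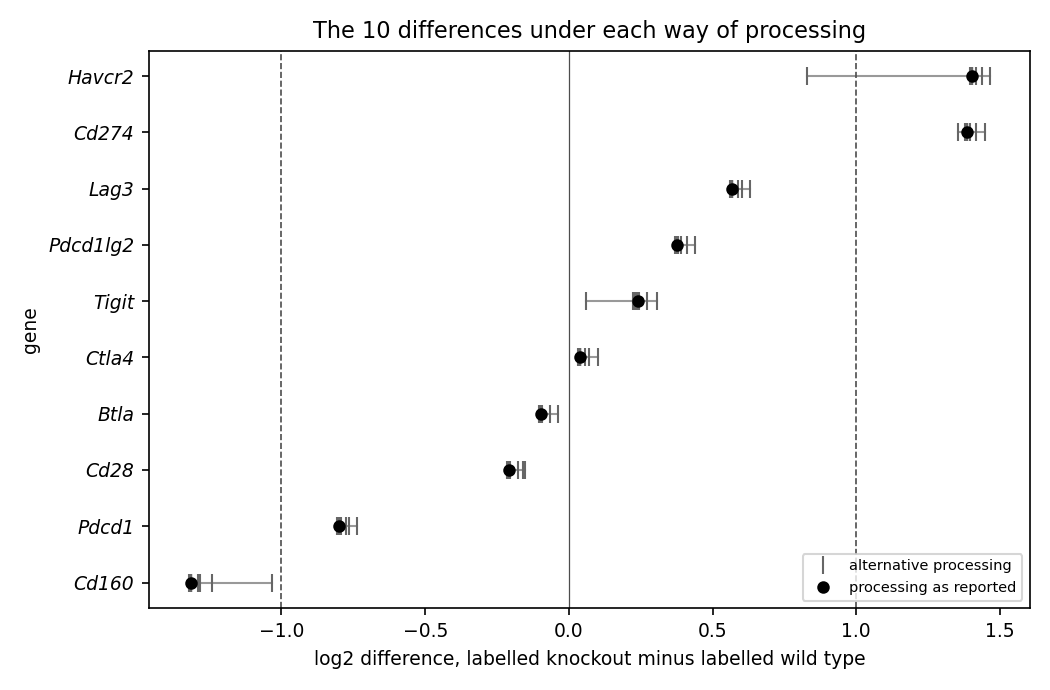
Log2 difference of each of the 10 genes (horizontal axis, knockout-labelled library minus wild-type-labelled library) as reported (black point) and under up to 13 alternatives of scaling, floor, probe choice and file (ticks), with dashed lines at 2-fold. Cd274 stays between 1.35 and 1.45, Havcr2 reaches down to 0.83, and the other genes keep their side of 0.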

How the data were processed

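Each of the 2 arrays received label made from 100 ng of RNA, per the labels' protocols, and the submitters' processing notes name Agilent Feature Extraction 11.5.1.1. The authors deposited 1 linear intensity for each spot, with no flags and with no statement of any background correction. The authors' deposited value table holds the same intensities times a constant (median ratio 2.26 for the knockout-labelled library, 2.27 for the wild-type-labelled library), with column medians of 34.8 and 34.4. That table served as an alternative. It has a linear scale without centring, and the origin of its constants is unknown.

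Each array held 59305 spots. Spots of a probe were averaged on the log2 scale, the 75th percentile of all probes on the array was taken off, and signals under the array's median were set to that floor. Only probes over the floor on an array were kept, and their mean gave the value of a gene. A fold against a side below the floor is a lower bound.

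Names came from the platform annotation (31465 spots with 1 symbol, 0 with several, 27840 with none), updated through RefSeq accessions for 29036 spots, symbols for 2075 and synonyms for 349, and 5 kept theirs. Chromosomes and neighbours are from GRCm38.p6. The files name no build. With 1 array per genotype no test was run.

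The members and lists were chosen with earlier results of these data known. The rule for named genes allowed all 10 genes, the binding partners, Gfi1, Actb, B2m, Gapdh and Hprt, and of each list the genes past 2-fold and the 3 largest differences either way, and only some of those it allowed are described. Further genes, among them the flanking genes, Xist, Eif2s3y and other list members named singly, were chosen after their values were seen. The counting steps were tested on simulated data. Alternatives were other scalings (median, quantile, cyclic loess with a span of 0.3, none), the authors' table, floors at percentiles 25 and 75, other probe choices, an offset of 16 units, thresholds of 1.5-fold and 3-fold, and omission of spots above feature number 50000. Scripts ran in Python 3.11.15 with pandas 2.3.3 and numpy 2.4.6, loess came from statsmodels 0.14.6, and plots from matplotlib 3.10.9.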

Additional observations from a re-analysis of the deposited data

How the results depend on the processing

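No paired analysis was possible because each genotype has 1 array. Cd274 stayed past 2-fold in all 13 alternatives that measured it, between 1.35 and 1.45, and Cd160 in all 12, between -1.32 and -1.03. The count of genes at least 2-fold higher was 1 in place of 2 with a floor at the 75th percentile, with an offset of 16 units, without spots above feature number 50000 and with only the 9 genes of at least 50 units (chosen after the data were seen), each time through Havcr2, which was left out or, with the offset, stood at 0.83, and 0 at a 3-fold threshold. The count at least 2-fold lower was 0 with a floor at the 75th percentile, where Cd160 was not detected, and at 3-fold, and 2 at 1.5-fold, which adds Pdcd1. The median of the group was 0.20 with cyclic loess, 0.048 with the floor at the 75th percentile, 0.23 without spots above 50000 and 0.038 with genes of at least 50 units. All 10 genes kept their side of 0 in every alternative that measured them. No scaling moved the median of all genes by more than 0.061. Over all genes 485 were at least 2-fold higher and 204 lower, against 136 and 20 with the floor at the 75th percentile, 980 and 634 with it at the 25th, 1004 and 638 with no floor, 360 and 125 with the offset, 374 and 125 with probes detected on both arrays, 351 and 105 without spots above 50000, 1029 and 570 at 1.5-fold, and 215 and 87 at 3-fold. Signals within about 3 times the floor, among them those of Havcr2 in both libraries, of Cd160 in the knockout-labelled library and of Icosl, Nectin3, Fgl1, Cd8a and Ncr1, are where the brightness limits the precision.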
